A study of Mus musculus with 10 samples.

Results

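The genes described here belong to the epidermal desquamation system. They are 7 kallikrein proteases (Klk5, Klk6, Klk7, Klk8, Klk10, Klk11 and Klk13), the Kazal-type inhibitors Spink5 and Spink12, and corneodesmosin (Cdsn). They were chosen by name, with earlier results of these data known, among genes with a probe set annotated to a single symbol. The choice leaves out some measured kallikreins, such as Klk9 and Klk12. It makes up 10 of the 18194 genes measured on the array, each with 1 probe set. Tissue kallikreins are secreted serine proteases that are made as inactive precursors. In the outer epidermis Klk5 and Klk7 cut the proteins that hold corneocytes together, corneodesmosin among them, and the inhibitor encoded by Spink5 restrains them until the cells are shed. Differentiation begins when keratinocytes leave the basal layer, a step that raised calcium imitates in culture.

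Affymetrix mouse expression arrays were used to measure mRNA in keratinocytes cultured from newborn mice of the FVB strain. In all, 2 arrays were of undifferentiated cells kept in low calcium, 4 of cells differentiated with calcium for 2 days, 2 of differentiated cells expressing A-C/EBP and 2 of differentiated cells given 5-AZA. A-C/EBP pairs with C/EBP transcription factors and, as a dominant negative, keeps them from DNA. It was expressed from a tetracycline-controlled transgene that removal of doxycycline switched on before calcium was raised. 5-AZA is 5-azacytidine, an inhibitor of DNA methylation added to the cultures soon after seeding, also before calcium was raised. The arrays do not measure DNA methylation. The labels give FVB for every group and do not state whether the cells without A-C/EBP carried the transgene. They also do not state whether arrays of 1 group came from separate cultures, so the p-values below measure the spread between these arrays, which may be technical.

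Values are log2 levels as the authors deposited them. Array medians lay between 4.64 and 4.78, and correlations across genes between replicates of a group were 0.990 to 0.996. All 10 keratinocyte markers examined, such as Krt5 and Krt14, lay above the array median on every array. Their mean level was 10.35 to 10.69 in undifferentiated cells, 9.42 to 9.83 in differentiated cells, 10.40 to 10.51 with A-C/EBP and 9.33 to 9.74 with 5-AZA. Markers of other cell types were read as well. Of the 8 melanocyte markers 7 to 8 lay above the array median (means 7.57 to 8.27), and of the 9 measured fibroblast markers 5 to 7 did. The markers thus do not show that the cultures held keratinocytes only. A-C/EBP replicate 2 stood apart in its hybridization controls, with a mean of 11.34 against 9.03 to 10.59 on the other arrays, and in the sex-linked transcripts Xist (9.93 against 5.84 to 8.27) and Eif2s3y (3.74 against 5.40 to 6.03). Without this array 0.308% of all genes were called with A-C/EBP against differentiated cells, in place of 2.07%, and the genes called in that comparison are given with and without it. Bulk RNA cannot tell fewer cells of a type from less RNA per cell. Levels of different probe sets are not compared with each other.

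The kallikreins lie side by side. The 7 members span 43712567 to 43851181 on chromosome 7 of the mouse build GRCm38.p6, about 139 kb, in the order Klk13, Klk11, Klk10, Klk8, Klk7, Klk6 and Klk5. Klk12 and Klk9 lie among them, so that 9 measured genes make up this stretch. Cdsn lies on chromosome 17 (35543101 to 35557180), and Spink5 and Spink12 are 81.8 kb apart on another chromosome.

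Start-site windows of 300 bases, from 250 before to 50 after an annotated start, were taken from RefSeq for 8 of the 10 genes (11 windows, GRCm38.p6). Spink5 and Spink12 had no window, so the patterns could not be read for Spink12, which fell with A-C/EBP. The windows of Cdsn and Klk11 are shown because both A-C/EBP arrays of these genes lay above all differentiated controls and the windows hold the C/EBP pattern. That of Klk7 is shown as a kallikrein whose levels with and without A-C/EBP overlapped. Since the windows were picked by level and by pattern, they cannot show a link between the pattern and A-C/EBP. Capitals mark matches, on either strand, to TTGCNNAA (the pattern of C/EBP sites) or TGACG (the shorter pattern of CREB sites).
Cdsn, second window (chr17:35551878-35552177, plus strand): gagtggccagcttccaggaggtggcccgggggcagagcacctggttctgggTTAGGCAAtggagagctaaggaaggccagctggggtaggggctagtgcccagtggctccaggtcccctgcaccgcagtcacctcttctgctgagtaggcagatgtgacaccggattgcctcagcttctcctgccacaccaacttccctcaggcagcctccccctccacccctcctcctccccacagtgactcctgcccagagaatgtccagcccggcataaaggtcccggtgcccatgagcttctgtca
Klk11, first window (chr7:43774367-43774666, plus strand): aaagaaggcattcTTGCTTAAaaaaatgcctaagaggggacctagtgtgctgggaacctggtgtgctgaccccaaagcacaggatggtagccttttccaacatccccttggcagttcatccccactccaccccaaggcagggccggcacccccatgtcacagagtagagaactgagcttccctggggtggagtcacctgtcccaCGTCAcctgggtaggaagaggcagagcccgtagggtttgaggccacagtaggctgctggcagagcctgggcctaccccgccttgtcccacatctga
Klk11, second window (chr7:43776079-43776378, plus strand): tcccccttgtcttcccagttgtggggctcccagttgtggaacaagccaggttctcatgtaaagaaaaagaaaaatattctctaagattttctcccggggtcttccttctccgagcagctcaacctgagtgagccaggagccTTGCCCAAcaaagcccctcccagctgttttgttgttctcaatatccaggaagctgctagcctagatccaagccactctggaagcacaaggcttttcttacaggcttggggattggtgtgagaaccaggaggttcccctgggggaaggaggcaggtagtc
Klk7 (chr7:43811044-43811343, plus strand): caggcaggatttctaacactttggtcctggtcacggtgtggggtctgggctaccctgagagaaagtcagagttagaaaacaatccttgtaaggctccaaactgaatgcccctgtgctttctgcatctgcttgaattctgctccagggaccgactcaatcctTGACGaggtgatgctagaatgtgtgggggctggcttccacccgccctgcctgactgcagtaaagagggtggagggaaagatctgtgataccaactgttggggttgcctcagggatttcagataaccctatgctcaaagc
TTGCNNAA matched in 3 of the 11 windows (27.3%), belonging to Cdsn and Klk11, where 10.8% of all 32851 windows held it. The first Cdsn window and the windows of Klk6 had no match, and the A-C/EBP arrays of Klk6 also lay apart from the controls, below them. TGACG matched in 2 of the 11 (18.2%, in Klk11 and Klk7) against 20.8% of all windows. The longer patterns TTGCGCAA, TGACGTCA and TGANTCA (the AP-1 pattern) matched in 0 of the 11, against 0.183%, 1.79% and 7.81% of all. The first Klk11 window holds TTGCTTAA at position -237 from the start, its second window TTGCCCAA at -109, and the Cdsn window TTAGGCAA at -199. These are matches of letters only and say nothing of binding.

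Calcium differentiation was the first comparison, and it raised most of the 10 genes. Differentiation raised 8 of the 10 genes at a limma adjusted p under 0.05 and lowered 0, where 6.64% of all genes measured rose and 9.13% fell. The 2 genes not called were Klk5 and Klk10. The median difference over the 10 genes was 1.65 on the log2 scale, against -0.01 over all genes. On 9 of the 10 probe sets every differentiated array lay above both undifferentiated arrays, which held for 15.1% of all genes.

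**Figure D1:**
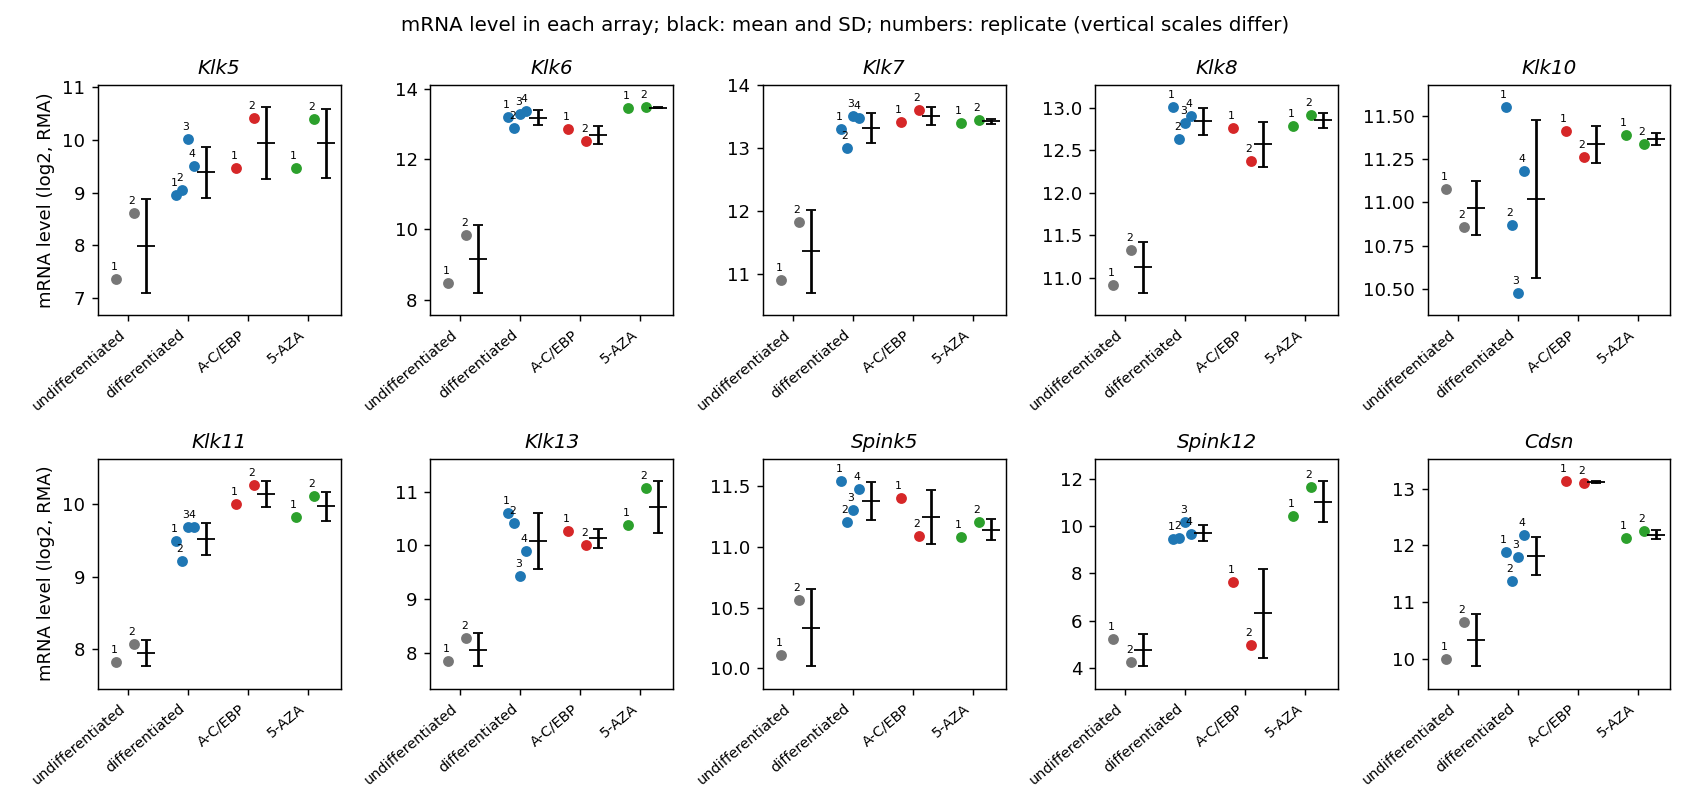
Log2 level of each of the 10 genes (vertical axes) on every array, with the arrays grouped on the horizontal axis as undifferentiated (n = 2), differentiated (n = 4), A-C/EBP (n = 2) and 5-AZA (n = 2). Coloured points are arrays numbered by replicate, black bars are the mean and SD of a group, and vertical scales differ between genes; Spink12 with A-C/EBP lies at 7.64 and 5.00 while differentiated cells lie at 9.46 to 10.19, and Cdsn with A-C/EBP lies at 13.13 and 13.10.

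Among the proteases, Klk6, a trypsin-like kallikrein first known from brain, changed most. Klk6 read 8.48 and 9.84 in undifferentiated cells and 13.20, 12.88, 13.30 and 13.38 in differentiated cells. The groups were far apart on every array, and Klk6 rose by 4.04 (SE 0.30, 16.4-fold, limma adjusted p = 4.13e-05), the 17th largest rise of all genes. Klk7, the chymotrypsin-like protease of the stratum corneum, read 10.90 and 11.83 before and 13.30, 13, 13.51 and 13.48 after differentiation. It rose by 1.95 (SE 0.23, 3.88-fold, limma adjusted p = 0.000366), more than the distance of 0.93 between its undifferentiated arrays.

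Klk8, a trypsin-like protease also called neuropsin, read 10.91 and 11.33 in undifferentiated and 13.01, 12.63, 12.82 and 12.91 in differentiated cells. Its rise was 1.73 (SE 0.16, 3.31-fold, limma adjusted p = 0.00011), with tight replicates in both groups. Klk11, another trypsin-like member, read 7.81 and 8.07 and then 9.49, 9.21, 9.69 and 9.69. It rose by 1.58 (SE 0.16, 2.99-fold, limma adjusted p = 0.000183). Klk13 read 7.84 and 8.28, and then 10.60, 10.41, 9.43 and 9.90. Replicates 1 and 2 of the differentiated cells were higher than 3 and 4 for this gene, and it rose by 2.03 (SE 0.31, 4.08-fold, limma adjusted p = 0.00163).

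Klk5, the trypsin-like protease that activates itself and other kallikreins, read 7.36 and 8.61 in undifferentiated and 8.95, 9.05, 10.02 and 9.50 in differentiated cells. The groups did not overlap, yet its difference of 1.39 (95% confidence interval 0.43 to 2.36) missed the threshold at a limma adjusted p of 0.0572. The undifferentiated arrays were 1.26 apart, and the difference was 2.02 (limma adjusted p = 0.031) without undifferentiated replicate 2 and 0.77 (limma adjusted p = 0.494) without replicate 1. Over 22 alternative settings Klk5 passed in 8, with adjusted p from 0.0213 to 0.494. In Klk5 replicate 2 was also above replicate 1 with A-C/EBP and with 5-AZA, by 0.96 and 0.92, and replicate 2 had the higher hybridization controls in these groups. Among differentiated cells replicate 2 had the higher controls too (10.37 against 9.03), and Klk5 was 0.11 above replicate 1. With the hybridization controls as a covariate in the fit the Klk5 difference was 1.25 and passed (limma adjusted p = 0.0224). The part of the hybridization signal in the spread of Klk5 was not tested.

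Klk10 read 11.08 and 10.86 in undifferentiated and 11.55, 10.87, 10.48 and 11.18 in differentiated cells. The arrays overlapped, and the difference was 0.05 (95% confidence interval -0.48 to 0.58, limma adjusted p = 0.951), an interval whose upper bound lies below every rise that was called.

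Both inhibitors rose. Spink5, which encodes LEKTI, the inhibitor of Klk5 and Klk7 that is lost in Netherton syndrome, read 10.11 and 10.56 in undifferentiated and 11.54, 11.20, 11.30 and 11.47 in differentiated cells. Its rise of 1.05 (SE 0.15, 2.06-fold, limma adjusted p = 0.00124) was the smallest of the 8. Spink12, a short Kazal-type inhibitor of the same family, read 5.24 and 4.28 in undifferentiated and 9.46, 9.49, 10.19 and 9.66 in differentiated cells. Undifferentiated replicate 2 lay below its array median of 4.74. Spink12 rose by 4.94 (SE 0.62, limma adjusted p = 0.000562). No fold is given for Spink12 against undifferentiated cells, since these readings were near the array medians and may lie at background.

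Corneodesmosin, the adhesive glycoprotein of corneodesmosomes and a substrate of Klk5 and Klk7, rose too. Cdsn read 10 and 10.65 in undifferentiated and 11.89, 11.37, 11.79 and 12.18 in differentiated cells, without overlap. The rise was 1.48 (SE 0.22, 2.80-fold, limma adjusted p = 0.00137). Klk6, Klk8, Klk11 and Spink12 passed in all 22 alternative settings, and Klk7, Klk13, Spink5 and Cdsn in 21 of 22, the exception being the methods' t-test after adjustment.

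**Figure D2:**
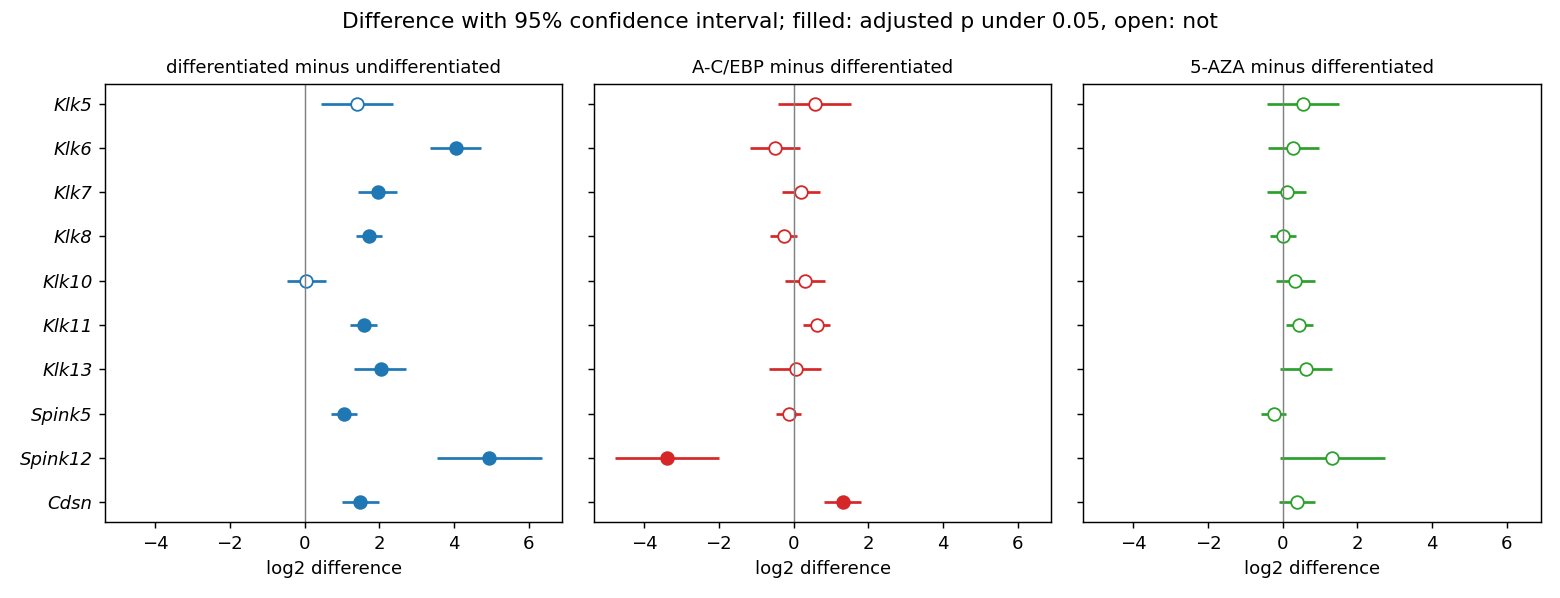
Differences in log2 level (horizontal axis) of the 10 genes (vertical axis) with differentiation (against undifferentiated cells), with A-C/EBP and with 5-AZA (each against differentiated cells), with 95% confidence intervals of the limma fit and filled points for an adjusted p under 0.05. Differentiation has intervals to the right of 0 for all but Klk10, Spink12 and Cdsn are the filled points with A-C/EBP, and 5-AZA has none.

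The effect of A-C/EBP in differentiated cells was the next question. The same 4 differentiated arrays served as controls here and for 5-AZA. Of the 10 genes, 1 rose (Cdsn) and 1 fell (Spink12) at a limma adjusted p under 0.05, where 1.49% of all genes rose and 0.583% fell. Without A-C/EBP replicate 2 none of the 10 passed, and 0.308% of all genes did in either direction. The other 8 did not pass with all arrays. The median difference over the 10 was 0.12, against 0.01 over all genes.

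Spink12 read 7.64 and 5.00 with A-C/EBP, against 9.46 to 10.19 in the 4 differentiated controls. Both arrays lay below every control, and they were 2.64 apart. Spink12 fell by 3.38 (SE 0.62, 95% confidence interval -4.78 to -1.99, limma adjusted p = 0.0259). Without A-C/EBP replicate 2 the difference was -2.06 (limma adjusted p = 0.168), and without replicate 1 it was -4.71. Leaving out any 1 differentiated array gave adjusted p from 0.053 to 0.0627, and the call held in 13 of 22 alternative settings. With the replicate number as a block it was lost (-3.16, limma adjusted p = 0.0545).

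Some markers of sebaceous cells moved with Spink12. The mean of the 6 measured was 6.21 to 6.41 in undifferentiated cells, 7.37 to 7.51 in differentiated cells, 6.40 to 7.12 with A-C/EBP and 7.49 to 7.50 with 5-AZA. On differentiation 3 of the 6 rose (Scd1, Plin2 and Cidea), and with A-C/EBP 1 fell (Plin2, by 0.97, limma adjusted p = 0.0225, and -0.79 and not called without A-C/EBP replicate 2). Fabp4 differed by -0.86 with differentiation and -0.61 with A-C/EBP, and Scd1 by -0.70 with 5-AZA, where Spink12 was higher, none of them called. The gland markers Mc5r (3.71 to 4.09) and Elovl3 (3.11 to 3.50) lay below the array median throughout. Their part in the Spink12 result was not tested.

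Cdsn read 13.13 and 13.10 with A-C/EBP, against 11.89, 11.37, 11.79 and 12.18 in the controls. The A-C/EBP arrays lay above all 4 and close together. Cdsn rose by 1.31 (SE 0.22, 95% confidence interval 0.81 to 1.80, 2.47-fold, limma adjusted p = 0.0186), on top of its rise with differentiation. The size hardly moved without A-C/EBP replicate 2 (1.32, limma adjusted p = 0.156) or without replicate 1 (1.29, limma adjusted p = 0.0751), although the call was lost. The call held in 18 of 22 settings, and over all of them the difference was 1.13 to 1.48. The keratinocyte marker mean given above was also higher with A-C/EBP (10.40 to 10.51) than in the controls, and lay within the range of undifferentiated cells (10.35 to 10.69). With A-C/EBP 1 of the 10 markers rose, while with differentiation 4 fell and 0 rose. The markers mix basal keratins (Krt5, Krt14 and Krt15) with the differentiation keratins Krt1 and Krt10, so their mean does not measure the share of keratinocytes. The part of these markers in the Cdsn result was not tested.

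A neighbour of Cdsn, Psors1c2, which lies 8.45 kb away, showed a similar direction. Psors1c2 read 6.58, 6.25, 6.44 and 6.23 in differentiated cells and 9.77 and 10.18 with A-C/EBP. It rose by 3.60 (SE 0.18, limma adjusted p = 1.86e-05) and by 3.40 without A-C/EBP replicate 2 (limma adjusted p = 0.000416), while differentiation alone gave 0.24 (limma adjusted p = 0.491). Of the 5 measured neighbours of Cdsn, Psors1c2 alone passed with A-C/EBP.

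The kallikreins had no call with A-C/EBP. Klk11 read 10.01 and 10.27, above the 9.21 to 9.69 of the controls on both arrays, a difference of 0.62 (95% confidence interval 0.26 to 0.98, limma adjusted p = 0.0941), which passed with the replicate number as a block (0.79, limma adjusted p = 0.0334). Klk6 read 12.87 and 12.51, both below the lowest control of 12.88, a difference of -0.50 (95% confidence interval -1.18 to 0.18, limma adjusted p = 0.559). Non-overlapping arrays were thus seen for 4 of the 10 genes, 2 higher and 2 lower, against 21.4% of all genes. Klk5 differed by 0.56, Klk10 by 0.31, Klk7 by 0.19, Klk13 by 0.05, Spink5 by -0.13 and Klk8 by -0.27, all within intervals that include 0.

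**Figure D3:**
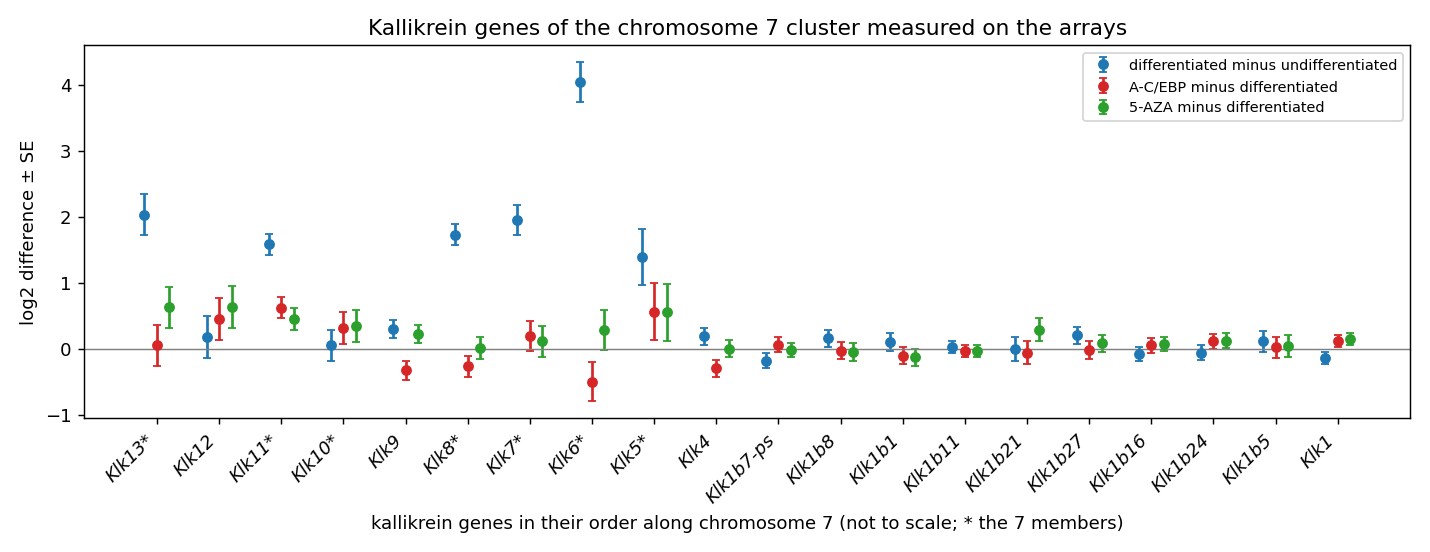
Differences in log2 level (vertical axis) of the measured kallikrein genes in their order along the cluster (horizontal axis), for differentiation (against undifferentiated cells) and for A-C/EBP and 5-AZA (each against differentiated cells), as points with SE bars and with a star on the 7 members. The called rises with differentiation lie in the stretch from Klk13 to Klk5, where Klk12 (0.18), Klk10 (0.05), Klk9 (0.30) and Klk5 (1.39) were not called.

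The 9 measured genes from Klk13 to Klk5 were not raised alike. Klk12 and Klk9 are kallikreins within this stretch that are not among the 10 genes. Klk12 differed by 0.18 (SE 0.32, limma adjusted p = 0.841) with differentiation, and Klk9 by 0.30 (SE 0.14, limma adjusted p = 0.219). With A-C/EBP they differed by 0.45 and -0.33, and with 5-AZA by 0.63 and 0.22, none of these called. Over the 13 measured genes of the list of other kallikreins, which holds Klkb1 and not the pseudogene Klk1b7-ps, 0 passed with limma in differentiation, 0 had an unadjusted p under 0.05, and 0 passed the methods' t-test after adjustment. Most of these are dim: 3 of the 13 (Klk1b21, Klk9 and Klk12) lay above the array median on every array. Klk1b genes are near-identical copies, so their probe sets may not tell them apart.

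For 5-AZA, added before differentiation, the question was whether levels after differentiation differed from those of the controls. None of the 10 genes passed with limma, where 0.170% of all genes rose and 0.115% fell. At an unadjusted p under 0.05 there was 1, Klk11, where 9.10% of all genes were, and the methods' t-test after adjustment called 0. Klk11 read 9.83 and 10.11, above all 4 controls, a difference of 0.45 (95% confidence interval 0.09 to 0.81, limma adjusted p = 0.413). Spink12 read 10.42 and 11.65, also above all 4, a difference of 1.33 (95% confidence interval -0.06 to 2.73, limma adjusted p = 0.578). With these, Klk6 was higher on both arrays (13.46 and 13.48, against at most 13.38) and Spink5 lower, which made 4 of 10 without overlap against 16.4% of all genes.

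The remaining genes stayed within wide bounds with 5-AZA. Cdsn read 12.13 and 12.25 and differed by 0.38 (95% confidence interval -0.11 to 0.87). Klk13 differed by 0.63 (-0.07 to 1.32), Klk5 by 0.55 (-0.42 to 1.52) and Klk10 by 0.34 (-0.19 to 0.87). Klk7 at 0.11 (-0.41 to 0.62) and Klk8 at 0.01 (-0.34 to 0.37) had the smallest differences. These intervals do not show that the levels were equal.

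Set directly against each other, the treatments parted at Spink12. Spink12 was lower with A-C/EBP than with 5-AZA by 4.72 (-4.72, SE 0.72, limma adjusted p = 0.00925), where 1.13% of all genes fell. No fold is given, since the A-C/EBP readings of 7.64 and 5.00 were 2.64 apart and the lower one was close to its array median of 4.76. Cdsn was higher with A-C/EBP by 0.93, which did not pass (limma adjusted p = 0.0926). No other member was called. Without A-C/EBP replicate 2 the Spink12 difference was -3.40 (limma adjusted p = 0.024), and without 5-AZA replicate 2 it was -4.11 and not called (limma adjusted p = 0.0795).

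Against undifferentiated cells, 8 of the 10 genes rose with A-C/EBP (7.60% of all genes did) and 9 with 5-AZA (7.42% of all genes did). The same 2 undifferentiated arrays serve in both and in the first comparison. With A-C/EBP, Klk10 (0.37, limma adjusted p = 0.504) and Spink12 (1.56, 95% confidence interval -0.05 to 3.17, limma adjusted p = 0.212) were not called. Cdsn rose by 2.79 (6.92-fold, limma adjusted p = 9.02e-05), Klk6 by 3.53 and Klk11 by 2.20. With 5-AZA, Klk10 alone was not called (0.40, limma adjusted p = 0.426), and Spink12 rose by 6.27 (limma adjusted p = 0.000412). Without A-C/EBP replicate 2 Klk5 was not called against undifferentiated cells (1.47, limma adjusted p = 0.171) and Spink12 was (2.88, limma adjusted p = 0.00798). With all arrays Klk5 passed in both, at 1.95 with A-C/EBP (limma adjusted p = 0.0247) and 1.95 with 5-AZA (limma adjusted p = 0.0246).

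**Figure D4:**
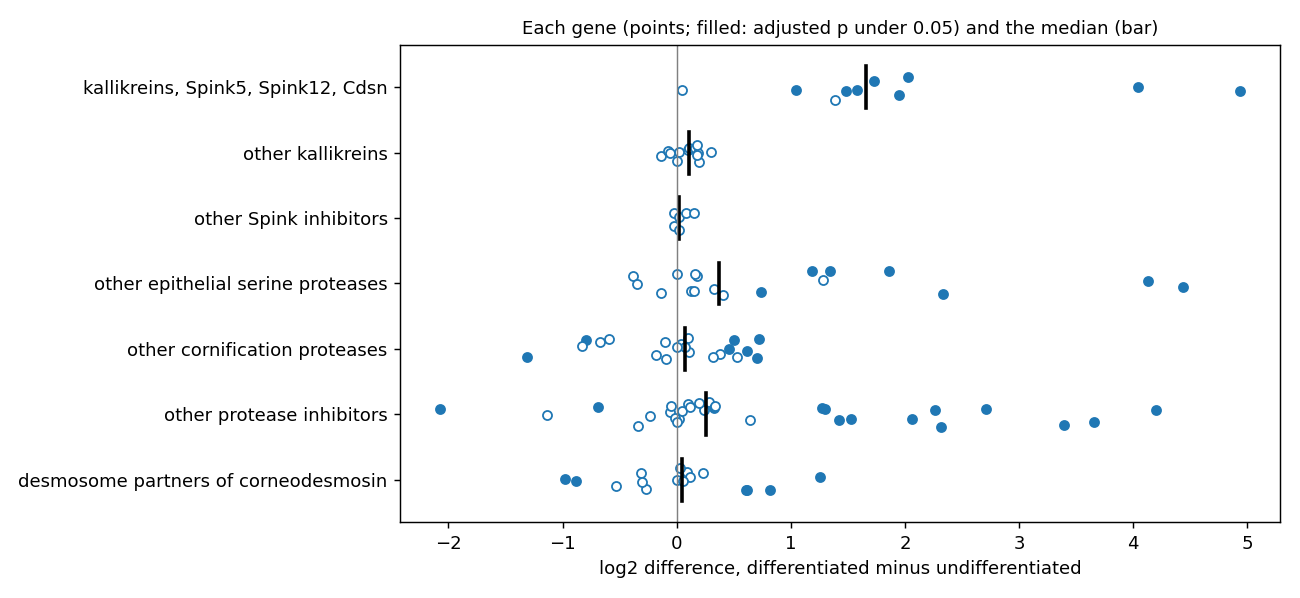
Differences in log2 level (horizontal axis) between differentiated and undifferentiated cells for each gene (points, filled at a limma adjusted p under 0.05) of the 10 genes and of 6 related lists (vertical axis), with list medians as bars. The other epithelial serine proteases and protease inhibitors reach past 4 while the other kallikreins and other Spink inhibitors lie between -0.14 and 0.30.

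Other proteases and inhibitors of epithelia were read from lists that were chosen with earlier results of these data known. With differentiation 7 of 18 other epithelial serine proteases rose and 0 fell, with a median of 0.37 against -0.01 over all genes. Tmprss11e, a membrane-bound protease, rose by 4.44 (limma adjusted p = 1.15e-05) and Prss27 by 4.13 (limma adjusted p = 0.000168), and Tmprss11f and Pcsk6 rose by 2.33 and 1.19. In undifferentiated cells Tmprss11e (3.66 and 4.13) and Prss27 (4.06 and 4.73) lay below the array medians and may be at background. Of 30 other protease inhibitors 12 rose and 2 fell. Cst6, a cystatin that inhibits cathepsins of the cornified layer, rose by 4.20 (limma adjusted p = 4.13e-05), Serpinb11 by 3.66, Serpinb8 by 2.26 and Wfdc18 by 2.06. Of 6 other Spink inhibitors 0 passed with limma and 0 had an unadjusted limma p under 0.05, and the methods' t-test called 0 after adjustment and 1 before it.

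Proteases of cornification, desmosome partners and kallikrein targets held calls in both directions. Of 21 other cornification proteases 5 rose and 2 fell, among them the cathepsins Ctsb (0.70) and Ctsl (0.62), the aspartic protease Asprv1 (0.72) and the bleomycin hydrolase Blmh (-0.79). Of 16 desmosome partners of Cdsn 3 rose and 2 fell, with Ppl, a plakin of the cornified envelope, at 1.26 and Pkp4 at -0.98. Of 14 targets and modifiers of the kallikreins 2 rose and 4 fell. Tslp, a cytokine released by keratinocytes under kallikrein signalling, was lower by 4.21 (-4.21, limma adjusted p = 0.000575), and Sult2b1, which makes the cholesterol sulfate that inhibits kallikreins, rose by 1.02.

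With A-C/EBP 8 of the 123 measured genes of all these lists were called (6.50%, against 2.07% of all genes), and 2 without A-C/EBP replicate 2, namely Psors1c2 and Ppl. None of the 18 other serine proteases passed with limma (5 had an unadjusted p under 0.05), and the methods' t-test called 0 after adjustment and 3 before it. Ctsh and Dpp4 rose by 0.87 and 1.00 among the cornification proteases. Serpinb6b rose by 1.31 and Serpina12 fell by 1.20 among the inhibitors, where Slpi, at -1.99, did not pass (limma adjusted p = 0.118). Serpina12 read 4.55 and 4.23 with A-C/EBP, below the array medians of 4.67 and 4.76, and may be at background there. Ppl rose by 1.12 (limma adjusted p = 0.00369) and by 1.11 without A-C/EBP replicate 2 (limma adjusted p = 0.045). Tslp rose by 2.96 (limma adjusted p = 0.0238) and Tnf by 1.06. Without that array the values were 0.61 for Ctsh, 0.73 for Dpp4, 0.91 for Serpinb6b, -1.04 for Serpina12, 1.74 for Tslp and 0.65 for Tnf, with limma adjusted p from 0.0875 to 0.237. With 5-AZA, Wfdc18 rose by 1.58 (limma adjusted p = 0.0272) and Ivl, which encodes involucrin, fell by 1.38 (limma adjusted p = 0.024), and no other gene of the lists was called.

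Genes whose levels ran most like each member over the 10 arrays were found among 3650 genes with a range of at least 1, by Pearson correlation. The arrays share conditions, so these values describe likeness only. Klk6 ran closest to Cst6 (0.994), Rhov (0.992) and Hopx (0.988), and Klk7 to Car2 (0.996), Scel (0.989) and Cmtm8 (0.985). Klk8 was nearest Mxd1, Ly6g6c and Arrdc4, and Klk11 nearest Fhod3, Itpkb and Klc3. Cdsn was nearest Ypel3 (0.982), Ano9 (0.978) and Mfsd6 (0.974), and Spink12 nearest Rdh10 (0.975), Hsd17b2 (0.975) and Copz2 (0.972). Spink5 ran with Cfap57, Gsta4 and Ephx3, Klk13 with Slc23a3, Mal2 and Pfkfb4, and Klk5 with Zranb1, Zswim3 and Kif13b. Klk10 had the loosest likeness, with Man1a at 0.839.

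Among the members, Klk6 ran with Klk8 (0.99) and with Klk7 (0.97), and Cdsn with Klk11 (0.94). Spink12 was less like Klk7 (0.63) and Cdsn (0.32), and Klk10 was little like Spink12 (0.12) or Klk5 (0.08). The genes nearest Spink12 were also lower with A-C/EBP: Hsd17b2 fell by 1.62 (limma adjusted p = 0.0178) and Copz2 by 1.44 (limma adjusted p = 0.0233), while Rdh10 differed by -1.02 (limma adjusted p = 0.052). Hsd17b2 read 4.31 on A-C/EBP replicate 2, below its array median of 4.76, and may be at background there. Without A-C/EBP replicate 2 the values were -0.99 for Hsd17b2 (limma adjusted p = 0.045) and -1.03 for Copz2 (limma adjusted p = 0.235). These genes were picked by likeness on the same arrays, so their direction is no separate evidence.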

How the data were processed

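The deposited log2 values were made by the authors with RMA in Affymetrix Expression Console, per the submitters' processing notes (versions not given). RMA corrects background, normalizes between arrays and summarises each probe set on the log2 scale, which compresses differences among dim probe sets. They were used without a second normalization. Of 45101 probe sets, 34958 had 1 gene symbol, 932 several and 9211 none, and 34754 were matched to the RefSeq table. Means per gene gave 18194 genes. The members and lists were chosen with earlier results of these data known.

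All 10 arrays entered 1 limma 3.58.1 fit in R 4.3.3 with a mean per condition (6 residual degrees of freedom), tests were two-sided, and p-values were adjusted over all genes by the Benjamini-Hochberg method. A gene was called at an adjusted p under 0.05. The fit was checked on simulated data. Named genes are all members, up to 4 per list with the smallest adjusted p in each of the first 3 comparisons, and the 3 genes most like each member (Pearson). Neighbouring kallikreins and sebaceous markers were named outside that rule, after their values were seen. The number of arrays limits the precision. Alternatives were median centring, quantile normalization, other choices of probe set, the dimmest 40% of genes left out, an intensity trend, the replicate number as a block, other sets of controls, the methods' threshold of 0.5 and t-test, the hybridization controls as a covariate, and each array left out in turn. Start-site windows came from RefSeq. The A-Fos samples and the immunoprecipitations are not analysed here. Python 3.11.15 and matplotlib 3.10.9 drew the plots.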

Additional observations from a re-analysis of the deposited data

How the results depend on the processing

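For the 10 genes in the first 3 comparisons, 640 values under alternatives kept their direction and side of the threshold, 17 lost the call, 16 gained one and 17 changed sign. Calls of the 10 genes in differentiation numbered 8 (15.8% of all genes were called), and 4 under the methods' t-test after adjustment (4.75%). With A-C/EBP against differentiated cells there were 2, against 1 with differentiated arrays 1 and 2 only, 0 with arrays 3 and 4 only, 0 under the methods' t-test, 5 at means more than 0.5 apart, and 0 to 2 with 1 array left out (0 without A-C/EBP replicate 2). With 5-AZA 3 genes, against 0 called, differed by more than 0.5. Of all genes, 6.74% were more than 0.5 apart with A-C/EBP, 3.98% with 5-AZA and 10% for A-C/EBP against 5-AZA. With A-C/EBP, 0.66% of all genes were called with differentiated arrays 1 and 2 only, and 0.44% with arrays 3 and 4 only. The methods' t-test called 0 with A-C/EBP and 0 with 5-AZA against undifferentiated cells, and it called 0 of all genes in both. For A-C/EBP against 5-AZA it called 0, with only the 2 compared conditions 0, at 0.5 apart 4, and with 1 array left out 0 to 1. With only those 2 conditions 0.528% of all genes were called. Values that changed sign were all uncalled. Klk10 in differentiation was -0.14 with arrays 3 and 4 only and -0.12 to 0.23 with 1 array left out. Klk13 with A-C/EBP was -0.37 under the replicate block, -0.37 with arrays 1 and 2 only and -0.17 to 0.22 with 1 array left out, and Spink5 was -0.29 to 0.02. With 5-AZA, Klk7 was -0.02 under quantile normalization and -0.06 with arrays 3 and 4 only, and Klk8 -0.04 under median centring, -0.05 under quantile normalization, -0.01 with arrays 3 and 4 only and -0.06 to 0.08 with 1 array left out. The causes were not tested.

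Replicate numbers are shared between groups but only 2 pairs exist per comparison, and differences between replicates 1 and 2 correlated at 0.23 to 0.47 between groups. Under the replicate block 9 genes rose in differentiation (Klk5 at 1.02, limma adjusted p = 0.0213), where 17.8% of all genes were called in either direction. With A-C/EBP 2 passed, Klk11 gaining the call (0.79, limma adjusted p = 0.0334) and Spink12 losing it (-3.16, limma adjusted p = 0.0545).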
